A study of Mus musculus with 12 samples.

Results

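The genes described here are 41 genes of lysosomal digestion and autophagy, listed by name, in the livers of mice that swallowed silver nanoparticles. A gene was measured through a probe set whose annotation names that gene and no other. On this rule 39 of the 41 had a value, each from 1 probe set, among 30062 genes in all. The cathepsin gene Ctsd shares its probe set with Ifitm10, and the beta-galactosidase gene Glb1 shares its probe set with Tmppe, so neither has a value. All 39 lay above the filter on low signal and were among the 19987 genes tested.

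Liver RNA of 12 mice was hybridised to whole-transcript Affymetrix arrays, with 1 array per mouse. All mice were 3 months old, the strain name being C57BL/6J -Oca2p-un/J, and each group of 4 held 2 males and 2 females. Control mice received water by gavage. The other groups received silver particles of 20 nm, coated with citrate in the first and with polyvinylpyrrolidone (PVP) in the second, at 4 mg of silver per kg on 7 consecutive days. Livers were taken 24 h after the last dose. The females were control replicates 2 and 4, citrate replicates 1 and 2 and PVP replicates 1 and 2. Each value below is a log2 signal or a difference of log2 signals, and 4 arrays per group limit the precision of all of them.

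Lysosomes are acidic organelles that take in material from endocytosis, phagocytosis and autophagy and break it down with hydrolases, which a vacuolar proton pump keeps at low pH. In autophagy, a membrane that carries proteins of the ATG8 family closes around cytoplasm or organelles and fuses with the lysosome. The transcription factors TFEB and TFE3 bind a palindromic E-box element in the promoters of many lysosomal genes and raise their transcription together when lysosomes are stressed or nutrients are scarce. Hepatocytes and Kupffer cells, the resident macrophages of the liver, are rich in lysosomes, and particles that reach the liver by the blood are taken up largely by Kupffer cells.

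The element that these factors bind is shown first, because it is what many of the listed genes have in common beyond their function. RefSeq promoter windows of the GRCm38.p6 assembly, reaching from 250 bases before to 50 bases after each gene's start, were given for 34 of the 41 genes. The E-box core CACGTG, searched on both strands, was in the windows of 15 of the 34 (44.1%), against 8.09% of 27025 genes with a window. The longer form GTCACGTG, which contains the core, was in 10 (29.4%, against 2.55% of all genes), and TCACGTGA, which overlaps it, in 6 (17.6%, against 1.12%). Lamp1, a heavily glycosylated protein that lines the lysosomal membrane, held 4 copies of the core, the most of any listed gene. They lie in the last 80 bases before its start, printed here with the core in capitals, as in each sequence that follows.
Lamp1, chr8:13159081-13159160, plus strand: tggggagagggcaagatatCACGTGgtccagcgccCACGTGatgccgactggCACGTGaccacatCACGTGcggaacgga
The copies of Gaa, Mcoln1, Gla, Atp6v1a and Naglu are shown as 30-base sites, as examples of glycan hydrolases (Gaa, Gla and Naglu), of a membrane protein and of the proton pump, and that of Ctsd because this gene has no expression value of its own. Gla and Ctsd hold a further copy each, 227 and 245 bases before the start, and for both the copy nearer to the start is printed.
Gaa, acid alpha-glucosidase, chr11:119267811-119267840, plus strand: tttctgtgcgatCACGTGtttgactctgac
Mcoln1, calcium channel, chr8:3500436-3500465, plus strand: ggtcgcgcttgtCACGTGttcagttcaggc
Mcoln1, nearer copy, chr8:3500462-3500491, plus strand: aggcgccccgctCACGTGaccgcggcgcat
Gla, alpha-galactosidase A, chrX:134601182-134601211, minus strand: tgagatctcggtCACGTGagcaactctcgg
Atp6v1a, proton pump, chr16:44139373-44139402, minus strand: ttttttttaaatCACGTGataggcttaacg
Naglu, heparan sulfate hydrolase, chr11:101070009-101070038, plus strand: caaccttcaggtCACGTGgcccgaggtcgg
Ctsd, cathepsin D, chr7:142387908-142387937, minus strand: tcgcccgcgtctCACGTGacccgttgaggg
In Gaa the core begins 140 bases before the start, in Mcoln1 71 and 45, in Atp6v1a 131 and in Naglu 73. Of the 15 genes, 13 had a copy within 150 bases before the start. The core was not found in the windows of Ctsc, Gabarapl1, Lipa, Ids or Pla2g15, 5 genes whose signals are set out below. Windows were not given for Becn1, Ctsb, Ctsh, Npc1, Asah1, Map1lc3a and Atp6v1h. A match of letters is a description of the sequence and not a measured binding site.

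**Figure D1:**
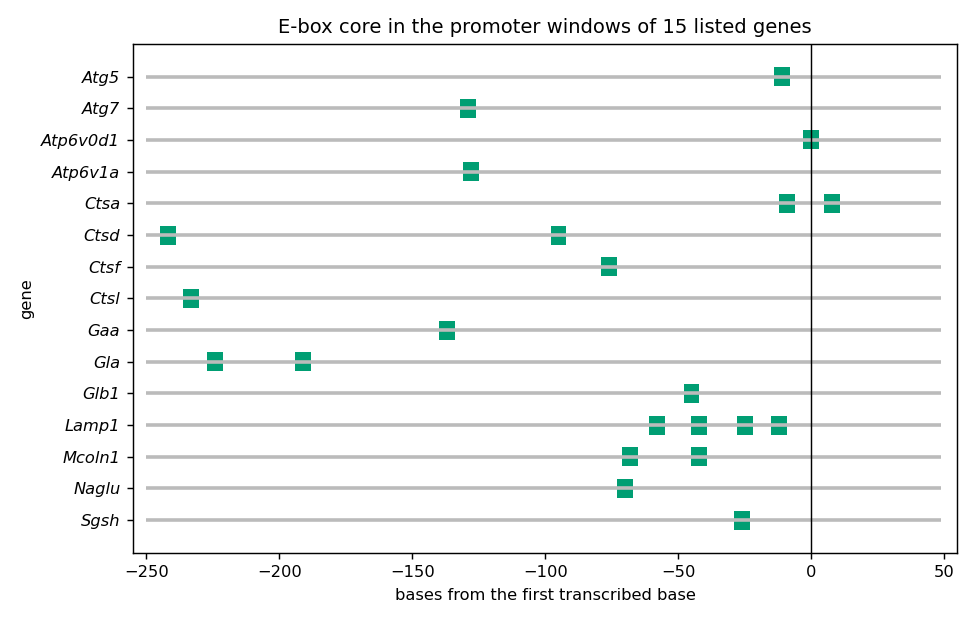
Each line is the promoter window of a listed gene that holds the E-box core, and each mark is a copy of it. The horizontal axis gives the distance in bases from the first transcribed base; the 4 copies of Lamp1 lie together close to the start.

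The arrays were not of equal quality. The area under the curve that separates exon from intron control probe sets was 0.824 ± 0.016 in control, 0.8204 ± 0.0062 in citrate and 0.802 ± 0.0198 in PVP livers (mean ± SD, n = 4 each), and PVP replicates 1 and 4 had the lowest values, 0.778 and 0.794. PVP arrays differed from control arrays by -0.0219, which is more than the SD of either group but did not pass a two-sided test (p = 0.171 by exact permutation). The median log2 signal over all probe sets ran from 4.13 to 4.40 and was highest in PVP replicate 1, followed by PVP replicate 4 at 4.28. All 9 measured hepatocyte markers passed the filter, as the label of liver would have it, but 5 of them sat at the ceiling of the table on all 12 arrays and so can show no difference between livers. Apoa1 likewise had the same value, 19.92, on all 12 arrays. Cps1 left the ceiling in PVP replicate 2 only and Tat in control replicate 1 only, so Hnf4a alone varied freely. Of 7 measured lymphocyte markers 1 did not pass the filter. Markers of Kupffer cells and macrophages were all above the filter (15 of 15). Their summed signal, on the log2 scale, ran from 12.80 to 13.91 in control, 12.96 to 14.29 in citrate and 12.84 to 15.29 in PVP livers, with the highest value in PVP replicate 2. In whole liver, fewer cells of a type and less RNA per cell cannot be told apart.

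The 39 genes had mean log2 signals between 4.63 and 17.26 over the 12 mice. Signals of different probe sets are not compared with each other, because each depends on its own probes. Mice of the same group and sex differed little for most of the genes, with a median SD of 0.17. It was smallest for Tfeb, at 0.0318, and above 0.4 in 5 genes, which were Npc1, Ctsc, Ctsl, Ctss and Ulk1. Lamp2, the second abundant glycoprotein of the lysosomal membrane, had exactly the same log2 signal, 17.35, on 6 of the 12 arrays, while single livers were lower, down to 16.79 in PVP replicate 1. PVP replicate 1, in which the exon over intron area was lowest, was the lowest mouse of the 12 for 17 of the 39 genes, and PVP replicate 2 was the highest for 11. How often these 2 mice were lowest or highest over all genes was not counted.

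**Figure D2:**
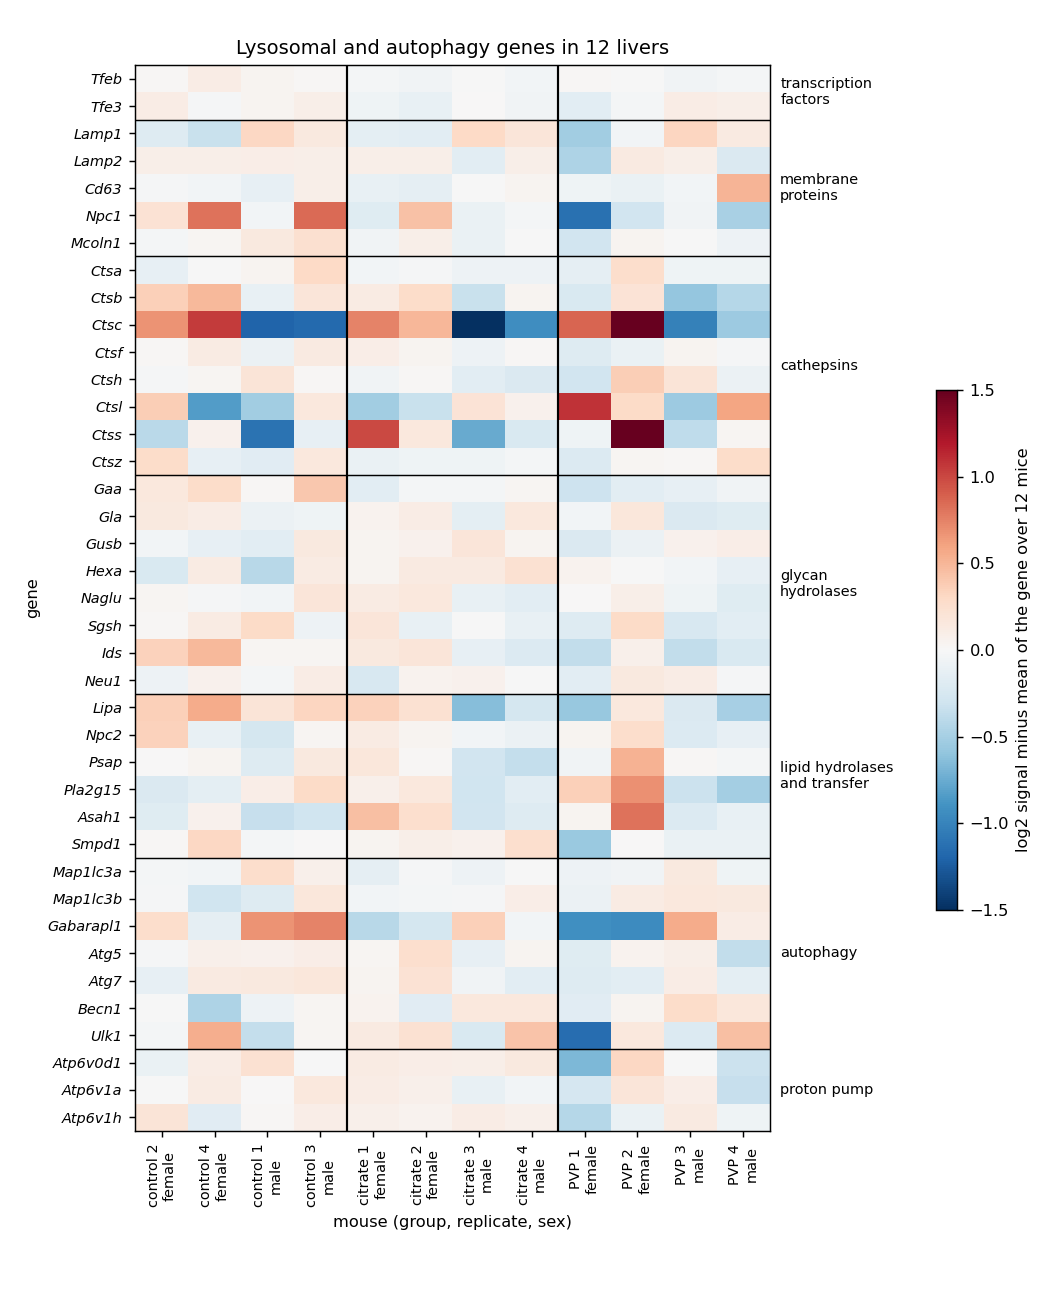
Rows are the 39 measured genes in order of role and columns are the 12 livers; colour gives the log2 signal minus the gene's mean over the 12 mice, and the deepest shades also hold values beyond the ends of the scale. Ctsc separates females from males in each group, and the column of PVP replicate 1 is blue for many genes.

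The first comparison asked whether citrate-coated particles changed these genes relative to water. None of the 39 passed the threshold in limma (adjusted p under 0.05 over all genes), where 1 of 19987 genes did (0.005%). An unadjusted p under 0.05 was reached by 4, each lower with citrate, against 6.57% of all genes in either direction and 3.82% in the lower one. These were the ATG8-family gene Gabarapl1, the glycogen-degrading glucosidase Gaa, the acid lipase Lipa and the sulfatase Ids. Of the 39 log2 fold changes 14 were above 0 (50.1% of all genes) and 25 below, with a median of -0.06 against 0.0004 over all genes tested, and none was larger than 0.5 in either direction. Over the 14375 genes with a mean above the 60th percentile of probe sets, which include all 39, the median was -0.011. Tfeb was the single listed gene whose 4 citrate livers all lay below the 4 controls, where such separation occurred in 4.3% of all genes, and 2.37% in the lower direction. The count of 4 was 2 with control mouse 2, 3 or 4 or citrate mouse 1 or 4 left out, and 1 with citrate mouse 3 left out. The share of all genes at that p was not counted in these fits.

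The second comparison set PVP-coated particles against water. Again 0 of 39 genes passed in limma, where 8 of 19987 did (0.04%). An unadjusted p under 0.05 was reached by 6, each lower with PVP, against 20.3% of all genes in either direction and 12.3% in the lower direction. They were Ids, the cysteine protease gene Ctsb, Gabarapl1, Gaa, the cholesterol exporter Npc1 and Lipa, with adjusted p-values of 0.0984 to 0.145. In Gaa, Npc1 and Lipa the 4 PVP livers all lay below the 4 controls, 3 of 39 where 7.91% of all genes had groups that did not overlap, and 4.92% in the lower direction. Fold changes were above 0 for 12 genes (49.3% of all genes) and below 0 for 27, with a median of -0.073 against -0.00233 over all genes. For the same 14375 genes of higher signal, which include all 39, the median was -0.066, close to that of the listed genes. The fold change was larger than 0.5 in either direction in 6 genes, lower in Npc1, Lipa and Gabarapl1 and higher in Ctsc, Ctsl and Ctss. How many of all genes were that large was not counted. Both comparisons use the same 4 control mice, so their values are given side by side and not as separate evidence.

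These counts moved with single PVP arrays, both that of lowest quality and others. In PVP replicate 1, 31 of the 39 genes lay below the control mean of the same sex, against 17, 22 and 27 in PVP replicates 2 to 4. The share of all genes below that mean was not counted for any mouse. The median of the 39 fold changes was -0.0315, with 17 above 0, with the area as a covariate, and -0.011, with 19 above 0, without PVP replicates 1 and 4. With PVP mouse 1 alone left out, 10 genes had an unadjusted p under 0.05 and 16 were above 0. With PVP mouse 2 left out, whose area was 0.821, the counts were 11 and 9. How many of all genes reached that p in these fits was not counted. Cell type markers moved in the same comparison. Stellate cell markers were below 0 with PVP in 8 of 8 genes (3 at an unadjusted p under 0.05) and endothelial markers in 6 of 8 (2), while Kupffer cell markers were above 0 in 15 of 15 (3) and neutrophil and monocyte markers in 9 of 11 tested (3), and none passed. Within the sexes the Kupffer cell markers were above 0 with PVP in 15 of 15 in females but in 6 of 15 in males. The summed log2 signal of the stellate list ran from 12.39 to 13.26 in control and from 11.74 to 13.01 in PVP livers, and that of the neutrophil and monocyte list from 8.46 to 10.46 and from 9.73 to 12.76. The sum adds unlogged signals, so the genes of highest signal weigh most. The value of 12.76 is that of PVP replicate 2, where S100a8 and S100a9 had 11.63 and 11.52 and Retnlg came next at 8.17. The part of these lists in the values below was not tested.

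**Figure D3:**
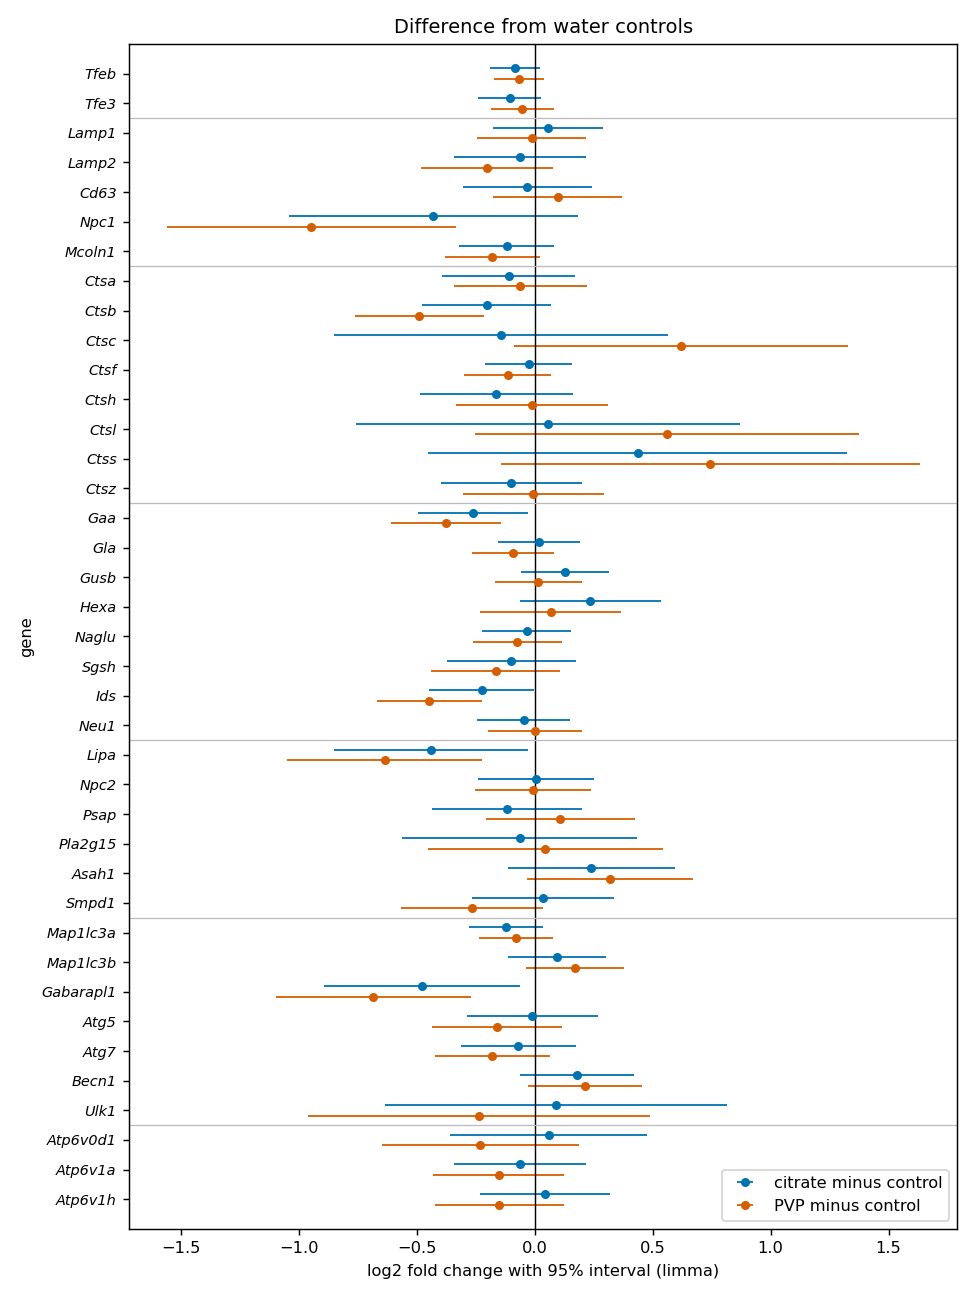
Points are log2 fold changes of each gene against water controls and bars are 95% intervals from limma, with citrate in blue and PVP in orange. Intervals that leave out 0 all lie on the lower side, for 4 genes with citrate and 6 with PVP.

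Among the transcription factors, Tfeb had log2 signals of 4.77, 4.75, 4.75 and 4.83 in control replicates 1 to 4, 4.70, 4.67, 4.73 and 4.68 in citrate replicates 1 to 4, and 4.75, 4.72, 4.68 and 4.70 in PVP replicates 1 to 4. The highest citrate liver was just under the lowest control, and the PVP group overlapped the controls by a narrow margin. The log2 fold change of Tfeb was -0.08 with citrate (SE 0.05, adjusted p = 0.867) and -0.07 with PVP (SE 0.05, adjusted p = 0.431). Tfe3, a close relative with the same binding preference, had 5.62, 5.69, 5.67 and 5.57 in controls, 5.52, 5.47, 5.60 and 5.54 with citrate and 5.43, 5.55, 5.69 and 5.67 with PVP. Its groups overlapped, and the differences were -0.11 (SE 0.06, adjusted p = 0.867) and -0.05 (SE 0.06, adjusted p = 0.633). The 95% intervals of both factors lay between -0.24 and 0.04 for both coatings except that of Tfe3 with PVP, whose upper end was 0.08. The mean signal of Tfeb, 4.73, was low, at the 54.3 percentile of all genes and near the array medians of 4.13 to 4.40. Whether differences are understated at such a signal was not tested. These arrays measure the RNA of the factors and not their movement into the nucleus, by which their activity is mainly set.

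Of the 5 membrane proteins, Npc1, which passes cholesterol out of the lysosome, differed most. Its log2 signals were 10.82, 11.06, 11.70 and 11.66 in control replicates 1 to 4, 10.67, 11.29, 10.75 and 10.82 with citrate, and 9.73, 10.56, 10.80 and 10.37 with PVP. Each PVP liver lay below each control, by a narrow margin between the highest PVP liver and the lowest control, and PVP replicate 1 was far below the rest. The difference with PVP was -0.95 (SE 0.28, adjusted p = 0.144) and with citrate -0.43 (SE 0.28, adjusted p = 0.901). With the area as a covariate the PVP value was -0.56, and without PVP replicates 1 and 4 it was -0.63. Mcoln1, a calcium channel of the lysosomal membrane, had 6.93, 6.76, 7.03 and 6.81 in controls, 6.73, 6.87, 6.69 and 6.77 with citrate and 6.50, 6.83, 6.77 and 6.71 with PVP, with overlapping groups and a PVP difference of -0.18 (SE 0.09, adjusted p = 0.288), or -0.081 without PVP replicates 1 and 4. Lamp1, Lamp2 and the tetraspanin Cd63 had differences from control of -0.20 to 0.10 over both coatings, and their intervals all included 0.

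Cathepsins are the proteases of the lysosome. Ctsb, which encodes the abundant cysteine protease cathepsin B, had 16.03, 16.50, 16.32 and 16.62 in controls, 16.26, 16.42, 15.80 and 16.18 with citrate and 15.90, 16.35, 15.55 and 15.72 with PVP. PVP replicates 1, 3 and 4 lay below each control, while PVP replicate 2, a female, lay among them but below both control females. The difference was -0.49 with PVP (SE 0.12, adjusted p = 0.117), -0.20 with citrate (SE 0.12, adjusted p = 0.887) and -0.29 between PVP and citrate (SE 0.12, adjusted p = 0.346). Cathepsin C, encoded by Ctsc, activates the granule proteases of immune cells. Its log2 signals were 9.76, 11.63, 9.79 and 12.004 in controls, 11.71, 11.45, 9.44 and 10.02 with citrate and 11.83, 13.49, 9.94 and 10.41 with PVP. The spread within a group followed sex, and the highest mouse was PVP replicate 2, in which the summed Kupffer cell signal was also highest. Between groups the Ctsc differences were 0.62 for PVP against control (SE 0.32, adjusted p = 0.293), -0.14 for citrate against control (SE 0.32, adjusted p = 1) and 0.76 for PVP against citrate (SE 0.32, adjusted p = 0.346). Ctss, cathepsin S of antigen-presenting cells, was highest in the same liver, at 11.83, and next in citrate replicate 1, at 11.004, against 8.91 to 10.17 elsewhere, and its intervals reached from -0.45 to 1.32 with citrate and from -0.14 to 1.63 with PVP. Kupffer cell markers lay above 0 for 15 of 15 genes with each coating, with 0 passing in either comparison, and with 1 of them at an unadjusted p under 0.05 with citrate. By sex, from 2 mice per group and sex, they were above 0 in 15 of 15 in females with each coating. In males they were above 0 in 10 of 15 with citrate and 6 of 15 with PVP. Ctsl, another cysteine protease, had 15.28, 16.17, 15.95 and 14.96 in controls and 16.88, 16.08, 15.25 and 16.39 with PVP, which overlapped. The PVP difference was 0.56 for Ctsl and 0.75 for Ctss, neither at an unadjusted p under 0.05 in limma. The remaining cathepsin genes, Ctsa, Ctsf, Ctsh and Ctsz, had differences of -0.16 to -0.01 over both coatings, and none reached an unadjusted p under 0.05.

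Glycan hydrolases remove sugars from glycoproteins, glycolipids, glycosaminoglycans and glycogen. Ids, the sulfatase that begins the breakdown of heparan and dermatan sulfate, had 6.71, 7.03, 6.72 and 7.18 in controls, 6.83, 6.87, 6.56 and 6.48 with citrate and 6.32, 6.77, 6.32 and 6.46 with PVP. Only PVP replicate 2, a female, overlapped the controls, and it lay above the control males and below the control females. The difference was -0.45 with PVP (SE 0.10, adjusted p = 0.0984), -0.22 with citrate (SE 0.10, adjusted p = 0.755) and -0.22 between the coatings (SE 0.10, adjusted p = 0.36). Gaa, which degrades glycogen in the lysosome, had 8.62, 8.75, 9.01 and 8.87 in controls, 8.44, 8.57, 8.57 and 8.63 with citrate and 8.29, 8.45, 8.47 and 8.55 with PVP. Each PVP liver was below each control, and among the citrate livers replicate 4 alone was above the lowest control. The Gaa difference was -0.37 with PVP (SE 0.10, adjusted p = 0.138) and -0.26 with citrate (SE 0.10, adjusted p = 0.684). Hexa, a subunit of beta-hexosaminidase, had 9.42, 9.60, 9.95 and 9.96 in controls, 9.88, 9.97, 9.97 and 10.07 with citrate and 9.88, 9.83, 9.79 and 9.71 with PVP, so that the controls spread more widely than either treated group. Its citrate difference was 0.24 (SE 0.13, adjusted p = 0.867), and 0.13 with control mouse 1 left out. The other 5, the hydrolase genes Gla, Gusb, Naglu, Sgsh and Neu1, had differences of -0.17 to 0.13 over both coatings.

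Among genes of lipid breakdown and transfer, Lipa encodes the acid lipase that frees cholesterol and fatty acids from lipoprotein lipids. Its log2 signals were 14.39, 14.57, 14.53 and 14.76 in controls, 14.55, 14.43, 13.57 and 13.94 with citrate and 13.64, 14.36, 13.99 and 13.71 with PVP. With citrate the 2 males were low, and the 2 females lay within the control range but below both control females. With PVP each liver was below each control. The differences were -0.44 with citrate (SE 0.19, adjusted p = 0.723) and -0.63 with PVP (SE 0.19, adjusted p = 0.145). With the area as a covariate the PVP value of Lipa was -0.34, and without PVP replicates 1 and 4 it was -0.38. Asah1, acid ceramidase, lay on the other side, with 7.66, 7.82, 7.71 and 8.07 in controls, 8.45, 8.25, 7.72 and 7.80 with citrate and 8.04, 8.82, 7.80 and 7.89 with PVP. The treated livers each exceeded the control mean of their own sex, but the groups overlapped, and the difference was 0.32 with PVP (SE 0.16, adjusted p = 0.28) and 0.24 with citrate (SE 0.16, adjusted p = 0.91). With PVP mouse 2 left out the PVP value was 0.16, and with mice 1 and 4 left out it was 0.49. Smpd1, acid sphingomyelinase, had 8.23, 8.27, 8.27 and 8.57 in controls, 8.30, 8.35, 8.32 and 8.51 with citrate and 7.70, 8.26, 8.16 and 8.15 with PVP. It was the single listed gene whose PVP livers all lay below the citrate livers, which was so, or the reverse, in 7.2% of all genes (4.84% in this direction), and the difference between the coatings was -0.30 (SE 0.14, adjusted p = 0.359). Psap, the precursor of the saposins that present lipids to hydrolases, had 13.42, 13.62, 13.76 and 13.65 in controls, 13.78, 13.62, 13.32 and 13.25 with citrate and 13.55, 14.13, 13.62 and 13.58 with PVP, with 0.23 between the coatings (SE 0.14, adjusted p = 0.483), or 0.12 with PVP mouse 2 left out. Npc2, which hands cholesterol to NPC1, stood at 6.67 ± 0.26, 6.68 ± 0.09 and 6.67 ± 0.21 in control, citrate and PVP livers (mean ± SD, n = 4 each).

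In the autophagy genes the largest differences were those of Gabarapl1, an ATG8-family protein of the autophagosome membrane. It had 13.71, 13.29, 13.77 and 12.89 in controls, 12.62, 12.76, 13.39 and 12.99 with citrate and 12.12, 12.09, 13.59 and 13.14 with PVP. Each treated liver lay below the control mean of its own sex, and within each sex the treated livers all lay below both controls. The 2 PVP females were the lowest of the 12, and the groups overlapped in that treated males lay within the range of the control females or above it. The difference was -0.48 with citrate (SE 0.19, adjusted p = 0.651) and -0.68 with PVP (SE 0.19, adjusted p = 0.131). Map1lc3a, which encodes LC3A of the same family, had 4.90, 4.60, 4.71 and 4.59 in controls, 4.50, 4.62, 4.56 and 4.63 with citrate and 4.56, 4.58, 4.78 and 4.56 with PVP. Its groups overlapped and the citrate difference was -0.12 (SE 0.07, adjusted p = 0.869), or -0.070 with control mouse 1 left out. Map1lc3b, which encodes the widely used autophagosome marker LC3B, had differences of 0.10 (95% interval -0.11 to 0.30) and 0.17 (-0.04 to 0.38). Becn1, of the lipid kinase complex that starts the autophagosome, had 0.18 (-0.06 to 0.42) with citrate and 0.21 (-0.03 to 0.46) with PVP. Atg5 and Atg7, which attach ATG8 proteins to lipid, had -0.18 to -0.01 over both coatings. Ulk1, the kinase that initiates autophagy, had 9.05, 9.37, 9.44 and 9.96 in controls, 9.54, 9.64, 9.18 and 9.84 with citrate and 8.26, 9.56, 9.20 and 9.86 with PVP, and only PVP replicate 1 lay outside the control range.

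The proton pump was represented by 3 subunits. Atp6v0d1, of the membrane sector, had 10.88, 10.55, 10.65 and 10.77 in controls, 10.78, 10.75, 10.75 and 10.80 with citrate and 9.98, 10.96, 10.65 and 10.34 with PVP. The citrate livers were nearly equal while the PVP livers lay on both sides of them. Its difference between the coatings was -0.29 (SE 0.19, adjusted p = 0.495), and without PVP replicates 1 and 4 it was 0.034. Atp6v1h, a regulatory subunit of the ATP-hydrolysing sector, had 9.55, 9.72, 9.62 and 9.35 in controls, 9.61, 9.58, 9.64 and 9.60 with citrate and 9.10, 9.43, 9.66 and 9.46 with PVP, and -0.19 between the coatings (SE 0.12, adjusted p = 0.488), or -0.098 with PVP mouse 1 left out. Atp6v1a, the catalytic subunit, had differences from control of -0.06 with citrate (95% interval -0.34 to 0.22) and -0.15 with PVP (-0.43 to 0.13).

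**Figure D4:**
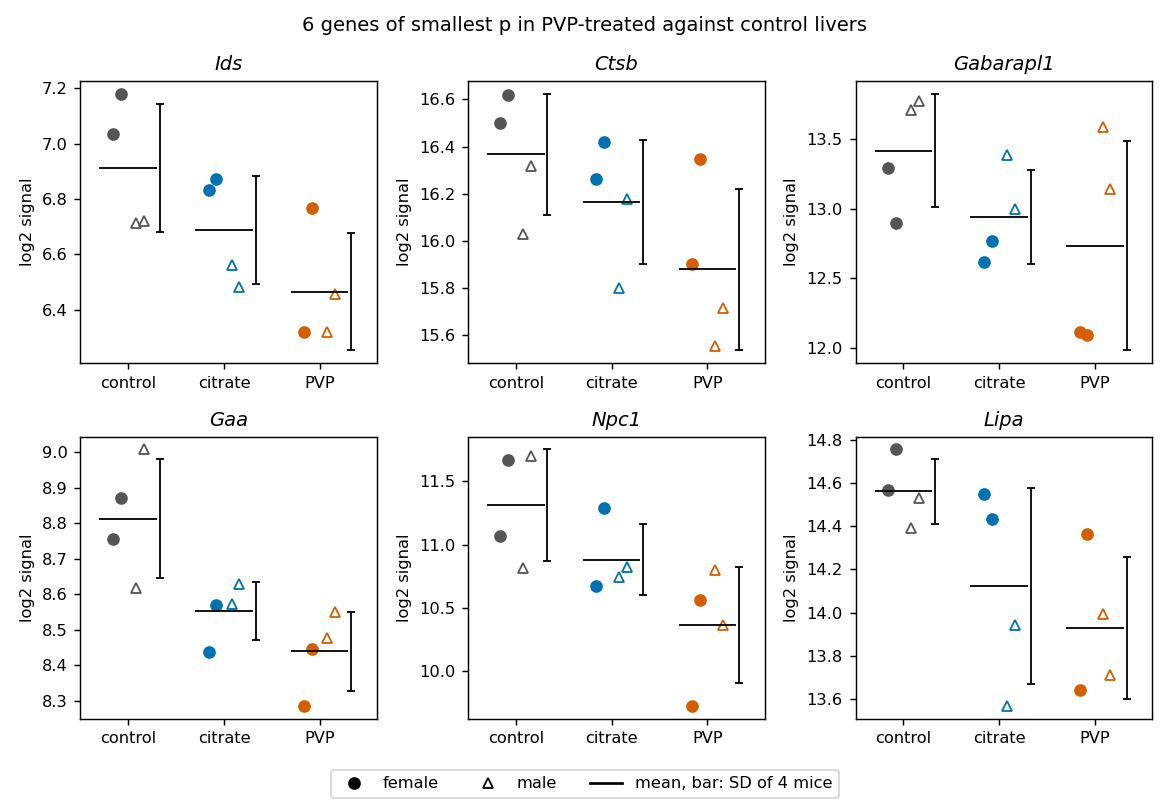
Points are log2 signals of single livers for the 6 genes of smallest p between PVP-treated and control mice, filled circles for females and open triangles for males, with the mean as a line and the SD of 4 mice as a bar. In Gaa, Npc1 and Lipa the PVP livers lie below all control livers, and each gene is drawn on its own vertical scale.

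The third comparison set the coatings against each other at equal dose, size and time. None of the 39 genes passed in limma, nor did any of 19987 genes (0%), and 2 of the 39 had an unadjusted p under 0.05, against 14% of all genes. These were Ctsc, at 0.76 higher with PVP, and Ctsb, at 0.29 lower. Then followed Smpd1, Ids, Npc1 (-0.52, SE 0.28, adjusted p = 0.416), Psap, Atp6v1h and Atp6v0d1, 6 genes of which only Psap was higher with PVP. Fold changes were above 0 for 16 genes (49.6% of all genes) and below 0 for 23. The 95% interval of Ctsc reached from 0.06 to 1.47 and that of Npc1 from -1.13 to 0.09, which leaves room for differences between the coatings as large as those seen against water. With PVP mouse 2 left out the Ctsc value was 0.38, and with PVP mouse 1 left out those of Smpd1, Ids and Npc1 were -0.17, -0.11 and -0.29. The count of 2 was 4 with PVP mouse 2 or 3 left out, 1 with citrate mouse 1, 3 or 4 or PVP mouse 4 left out, and 0 with citrate mouse 2 left out. Here too the share of all genes at that p was not counted.

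Females and males were compared over all groups, and 3 of the 39 genes passed in limma, against 2.18% of all genes tested (435). Ctsc alone was higher in females, where 0.931% of all genes were, and 2 were lower, where 1.25% were. The sex difference of Ctsc was 2.12 on the log2 scale (SE 0.26, adjusted p = 0.00186). Ctsc had log2 signals in females between 11.45 and 13.49 with a median of 11.77, and males between 9.44 and 10.41 with a median of 9.87, so the sexes did not overlap. Lamp1 was lower in females by 0.47 (difference of -0.47, SE 0.09, adjusted p = 0.0200). Its signals lay between 16.01 and 16.49 in females, with a median of 16.36, and between 16.68 and 16.86 in males, with a median of 16.77, again without overlap. Gabarapl1 was lower in females, with a difference of -0.80 (SE 0.15, adjusted p = 0.0245), from 12.09 to 13.29 in females (median 12.69) and from 12.99 to 13.77 in males (median 13.49), and here the sexes overlapped. An unadjusted p under 0.05 was reached by 11 genes, against 15.3% of all genes, 8 of them higher in females (6.36% of all genes) and 3 lower (8.93%). Of the 39 sex differences 19 were above 0, where 42.7% of all genes were.

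The 8 on the female side were Ctsc, Ctsb, Ctss, Gla, Ids, Lipa, Npc2 and Asah1, and the 3 on the male side were Lamp1, Gabarapl1 and Becn1. Ctsb differed by 0.41 (SE 0.10, adjusted p = 0.071), Asah1 by 0.48 (SE 0.13, adjusted p = 0.0977) and Ids by 0.29 (SE 0.08, adjusted p = 0.11). Among the 6 genes of lipid breakdown and transfer 5 were above 0, with a median of 0.27, and among the 7 autophagy genes 6 were below 0, with a median of -0.12, against -0.024 over all genes. The median sex difference of the 14375 genes above the 60th percentile was -0.049. Kupffer cell markers were also on the female side in 15 of 15 genes, with 0 passing and 9 at an unadjusted p under 0.05, and their summed signal ran from 12.80 to 15.29 in females and from 12.83 to 13.21 in males. Neutrophil and monocyte markers were on the female side in 10 of 11 tested genes, and their summed signal was 9.84 to 12.76 in females against 8.46 to 10.36 in males. The top of both female ranges was PVP replicate 2, for the latter list mainly through S100a8 and S100a9. The part of these 2 marker lists in the sex differences of Ctsc, Ctss and the other genes was not tested. Ctsc passed with each single mouse left out. Lamp1 did not pass with control mouse 1 or 4, citrate mouse 2 or 3 or PVP mouse 3 left out (adjusted p of 0.0504 to 0.0575). Gabarapl1 did not pass with control mouse 1, 3 or 4, citrate mouse 1 or 3 or PVP mouse 2 or 4 left out (adjusted p of 0.0502 to 0.0682). The count of 3 was 1 with control mouse 1 or 4 or citrate mouse 3 left out, and 5 with PVP mouse 1 left out. Of all 19987 genes these fits called 294, 298, 245 and 448, in the same order.

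**Figure D5:**
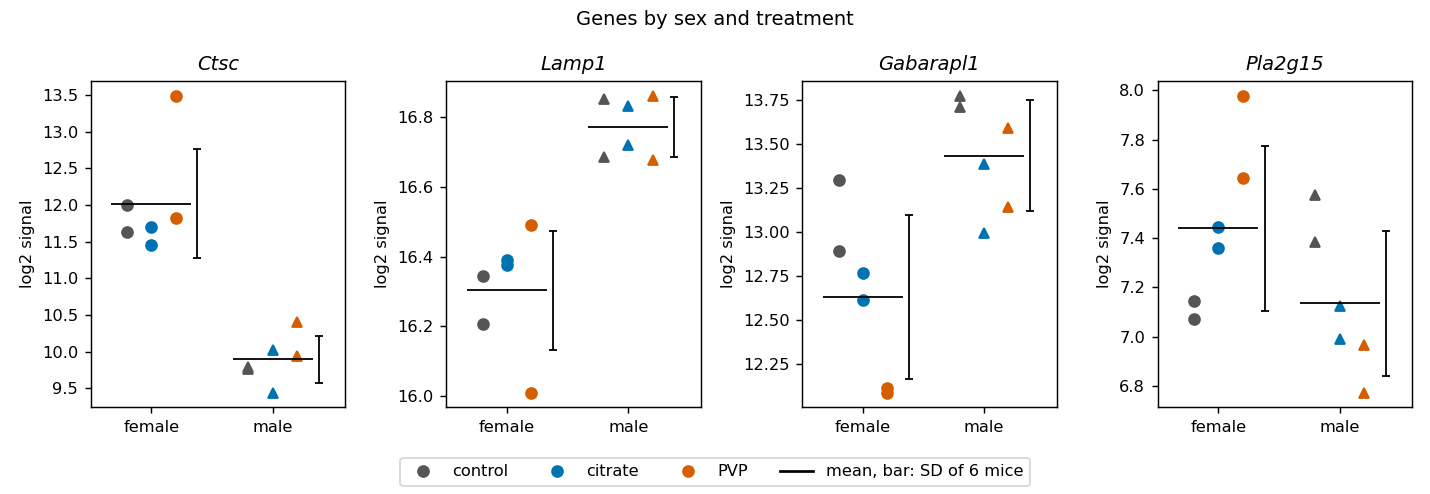
Log2 signals of Ctsc, Lamp1, Gabarapl1 and Pla2g15 are drawn by sex, with colour for treatment, the mean as a line and the SD of 6 mice as a bar. The sexes are apart for Ctsc and Lamp1, and in Pla2g15 the order of the treatments is opposite in females and males.

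Whether a coating acted differently in females and males was tested as the effect in females minus the effect in males, from 2 mice per group and sex. In limma 0 of 39 genes passed for either coating, nor did any of all genes (0%). An unadjusted p under 0.05 was reached by 2 genes with citrate and 1 with PVP, against 2.45% and 3.62% of all genes. Pla2g15, a lysosomal phospholipase A2 that was first with both coatings, was second of the 19987 genes by p for the PVP difference. In females its log2 signals were 7.07 and 7.15 in controls, 7.36 and 7.44 with citrate and 7.64 and 7.98 with PVP. In males they were 7.38 and 7.58 in controls, 6.99 and 7.13 with citrate and 6.97 and 6.77 with PVP. Every treated female lay above the control females, and every treated male below the control males. Both coatings are set against the same 2 control females and 2 control males, so they are not separate evidence. The PVP effect on Pla2g15 in limma was 0.70 in females and -0.61 in males. These differ by 1.31 (SE 0.21), with an adjusted p of 0.994. The citrate effect was 0.29 in females and -0.42 in males. These differ by 0.71 (SE 0.21), with an adjusted p of 1. Over both sexes the effects of Pla2g15 were -0.06 with citrate and 0.05 with PVP. Next with citrate came Naglu, whose females had 6.45 and 6.40 in controls and 6.54 and 6.58 with citrate while its males had 6.37 and 6.61 in controls and 6.31 and 6.26 with citrate, a difference of 0.34 (SE 0.15). The treated females were above and the treated males below their controls. Atg7 followed, with 6.73 and 6.99 in control females, 6.90 and 7.07 in citrate females, 6.99 and 7.02 in control males and 6.80 and 6.70 in citrate males, a difference of 0.39 (SE 0.19). With PVP, Gabarapl1 (-0.62, SE 0.31) and Ulk1 (-1.04, SE 0.63) came next, from the mice listed above. The adjusted p was 1 for each of these 4.

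The rest of the pathway was described from 6 lists of other genes. None of their members passed for either coating or between the coatings. With PVP against control, 2 of 13 tested genes of other proton pump subunits had an unadjusted p under 0.05, 5 of 25 other lysosomal hydrolases, 4 of 18 other membrane proteins, 9 of 35 other autophagy genes, 6 of 24 genes that control TFEB and mTORC1, and 5 of 16 genes that sort hydrolases to lysosomes. All of these were lower with PVP, where 12.3% of all genes were. In the same order 10 of 13, 17 of 25, 14 of 18, 32 of 35, 19 of 24 and 15 of 16 genes were below 0, where 49.3% of all genes were above 0. The medians were -0.17, -0.08, -0.08, -0.21, -0.24 and -0.18. Against these, the 14375 genes with a mean above the 60th percentile of probe sets had a median of -0.066. Without PVP replicates 1 and 4, a setting chosen after seeing the data, the counts below 0 were 8, 13, 10, 21, 16 and 13. PVP replicate 1 was the lowest of the 12 mice for 9, 11, 8, 26, 14 and 10 genes of these lists, in the same order. The share of all genes for which it was lowest was not counted. With citrate the same lists held 0, 1, 1, 1, 1 and 0 genes at an unadjusted p under 0.05, all of them lower. Of all genes, 3.82% were lower at that p and 6.57% differed in either direction.

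Nearest to the threshold was Gm2a, the activator protein that presents the ganglioside GM2 to hexosaminidase A. It had 9.90, 10.24, 10.32 and 10.34 in controls, 9.79, 9.71, 9.88 and 9.97 with citrate and 9.03, 9.08, 9.30 and 9.55 with PVP. Each PVP liver was below every control and citrate liver, with differences of -0.96 against control (SE 0.14, adjusted p = 0.0566) and -0.60 against citrate (SE 0.14, adjusted p = 0.239). After Gm2a in its list came Acp5, Siae and Arsb, at -0.54 to -0.35. The 4 genes of smallest p in each other list were also all lower. They were Atp6v1b2, Atp6v0a2, Atp6v1e1 and Atp6ap1 of the proton pump (-0.51 to -0.17), Laptm4b, Ctns, Mfsd8 and Abca2 of the membrane (-0.55 to -0.25), and Atg4b, Atg4d, Stx17 and Calcoco1 of autophagy (-0.38 to -0.32). Of the mTORC1 list they were Tsc2, Rptor, Rraga and Deptor (-0.54 to -0.35), and of the sorting list Ap1m1, Gga1, M6pr and Nagpa (-0.43 to -0.21). Adjusted p-values of these genes ran from 0.119 to 0.367.

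Sex gave 5 calls among the 131 genes tested in these lists (3.82%, against 2.18% of all genes), 2 higher and 3 lower in females. Atp6v0d2, an alternative form of the proton pump subunit d, was higher in females by 3.65 (SE 0.27, adjusted p = 4.79e-05), at 8.71 ± 0.64 in females and 5.07 ± 0.40 in males. Arsa, arylsulfatase A, was lower in females, with a difference of -1.54 (SE 0.10, adjusted p = 2.06e-05), from 6.67 ± 0.24 in males to 5.13 ± 0.16 in females. Scpep1, a serine carboxypeptidase, was higher in females by 0.74 (adjusted p = 0.0232). Zkscan3, a zinc-finger repressor of autophagy genes, and Sort1, the sorting receptor sortilin, were lower in females, with differences of -0.80 (adjusted p = 0.0267) and -0.76 (adjusted p = 0.0476). In the pair of proton pump d subunits the common form Atp6v0d1 had a sex difference of -0.05 (95% interval -0.39 to 0.29).

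The measured genes were last divided by the E-box core in their promoter windows. Of 13 with the core, 12 were below 0 with PVP, with a median of -0.15 and a range of -0.37 to 0.56, and Ctsl was the exception. Of 19 without it 10 were below 0, with a median of -0.006 and a range of -0.68 to 0.75. With citrate 9 of 13 and 12 of 19 were below 0, with medians of -0.03 and -0.06. Over all genes tested, 49.3% were above 0 with PVP and 50.1% with citrate. The 14375 genes of higher signal had a median of -0.066 with PVP. The share below 0 among all genes with the core was not counted. The counts by core are a description of 32 genes, and the 2 sets were not compared by a test. Without PVP replicates 1 and 4, again a setting chosen after seeing the data, 7 of 13 and 9 of 19 were below 0.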

How the data were processed

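Signals of 12 liver arrays were analysed. The authors deposited log2 signals, for which the submitters' processing notes list RMA and the Transcriptome Analysis Console, version 4.0.1.36. Genome build and annotation are not given in the sources used here. The table holds 72688 probe sets, from 1.73 to a ceiling of 19.93, where changes of abundant transcripts can be understated. Probe sets naming 1 gene were kept (30604; 2146 named several, 39938 none), symbols were updated through RefSeq for 1121, and the probe set of highest mean stood for a gene. Genes with a mean above the 40th percentile of probe sets (log2 3.93) were tested.

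Differences were fitted on all 12 arrays with limma 3.58.1 in R 4.3.3, with group and sex as terms and a trended spread, and with 6 group-by-sex means for sex differences in response. Tests were two-sided with Benjamini-Hochberg adjustment over all genes, and the fit was tested on simulated data. The labels name separate mice. All listed genes are described, with values per mouse for those past the threshold or else the 8 of smallest p in a comparison (3 for sex in response), and up to 4 genes of each further list for PVP and sex. Values per mouse of Ctsl and Ctss, and the intervals of further genes, were chosen with their results in view. The genes and lists were chosen with earlier results of these data known. Replicate numbers were not taken to pair the mice, since the labels name nothing shared within a number and sexes differ within numbers 1 and 4.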

Additional observations from a re-analysis of the deposited data

Results flagged for a closer look

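In 12 of 117 sets of 4 mice (39 genes in 3 groups), a single liver stood apart from the other 3 of its group. About 1 in 20 would by chance if the 4 values were independent and alike. Each set holds both sexes and the genes share arrays, so 12 is not read as an excess. Control Lamp2 would be flagged at any difference, since its other 3 values are equal. In control livers these were Lamp2 in replicate 1, at 17.35 in a group whose other values are all 17.35 to 2 decimals, Smpd1 in replicate 4, at 8.57 against 8.23 to 8.27, and Atg7 in replicate 2, at 6.73 against 6.99 to 7.02. In citrate livers, Lamp2 was low in replicate 3, at 17.1 against 17.35. Gusb was high in citrate replicate 3, at 6.9 against 6.75 to 6.78, and Map1lc3b was high in citrate replicate 4, at 6.22 against 6.08 to 6.10.

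Among PVP livers, Sgsh, at 5.35 against 4.82 to 4.90, and Psap, at 14.13 against 13.55 to 13.62, were high in replicate 2, the liver with the highest summed Kupffer cell signal. Map1lc3a and Atg7 were high in PVP replicate 3, at 4.78 against 4.56 to 4.58 and at 6.96 against 6.66 to 6.70. Cd63 was high in PVP replicate 4, at 8.61 against 7.998 to 8.06, and Map1lc3b was low in PVP replicate 1, at 6.03 against 6.24 to 6.27.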

How the results depend on the processing

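The counts of 0 listed genes past the threshold between groups held under all 26 alternatives tried for each comparison, while the count over all genes in the PVP comparison ran from 0 to 85. For sex, the count of 3 was 0 with the replicate block, 6 with the exon over intron area in the model and 1 to 5 over the fits without a single array. Over all genes the counts in these fits were 56, 930 and 245 to 605. Under the other alternatives the count of 3 was 2 or 3. With the replicate block, a pairing that the labels do not state (correlations of 0.0093 to 0.53 between same-numbered mice of the same sex and of -0.52 to -0.35 between those of opposite sex), Ctsc had an adjusted p of 0.166. Of the log2 fold changes of the 24 group comparisons given per mouse, Atp6v0d1 between the coatings alone changed sign, at 0.034 without the 2 arrays of lowest area. Quantile normalization moved the median sex difference of the 39 genes to 0.076, with 28 above 0 in place of 19, and Lamp1 no longer passed (-0.35). The numbers of listed genes at an unadjusted p under 0.05 ran from 1 to 5 with citrate, 5 to 11 with PVP and 0 to 4 between the coatings. The shares of all genes at that p were not counted under these alternatives. Differences of genes at the ceiling of the table cannot be measured.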
